A study of Mus musculus with 6 samples.

Results

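Atf4, Atf3, Ddit3, Trib3, Chac1, Asns, Sesn2, Slc7a5, Slc7a11 and Slc3a2 are genes of the response to amino acid shortage and endoplasmic reticulum stress, and they were followed here through 6 cultures of 3T3-L1, mouse fibroblasts that form adipocytes under hormonal induction. The 10 genes were taken by symbol from the platform annotation, with the brightest probe set where a symbol has several, and all 10 were on the array, with 1 probe set each. They are 10 of 19938 genes with a single symbol and 10 of the 9969 whose mean over the 6 arrays reached the median of all gene means, which was 5.87 on the log2 scale. That value is used below as the floor for dim genes. Atf3 passed it with the smallest margin, at a mean of 6.14. Over the 5 arrays other than AICAR fibroblasts, where it was highest, its mean was 5.871, beside a floor of 5.872 over all 6 arrays and 5.865 over those 5. Without the AICAR fibroblast array its place among the genes compared thus depends on which floor is used. Nothing is read from its 2-fold calls.

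The cultures comprised adipocytes that had been given 0.5 mM AICAR, adipocytes given 0.5 mM adenine, untreated adipocytes, fibroblasts given 0.5 mM AICAR, fibroblasts given 0.5 mM adenine, and untreated fibroblasts. AICAR is a ribonucleoside whose phosphorylated form mimics AMP and turns on the kinase AMPK, and adenine is a free purine base that cells convert to AMP. Fibroblasts were kept in 10% calf serum and met the compounds for 3 days. Adipocytes were all made with IBMX, insulin and dexamethasone in 10% fetal bovine serum, met the compounds during those 3 days only, and were then kept for 3 days in insulin medium without them before RNA was taken. State therefore went together with the induction drugs, the serum and, for treated cells, the time since exposure, and these cannot be told apart. Each condition has 1 array, so no difference below could be checked against replicates, and the precision of every value is limited by having 6 arrays.

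Values are log2 signals of Affymetrix whole-transcript arrays, with array medians of 5.41 to 5.49. The labels of state matched the markers. All 10 adipocyte markers lay at or above the floor on each adipocyte array, against 3 or 4 of 10 on the fibroblast arrays. The fibroblast markers were at or above it on all 6 arrays. None of 5 endothelial markers reached the floor on any array. In these bulk samples fewer cells of a type and less RNA per cell cannot be told apart.

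When amino acids run short or proteins misfold, kinases that sense the stress phosphorylate the initiation factor eIF2alpha, which slows general protein synthesis but raises translation of the Atf4 mRNA. ATF4 protein, a leucine zipper transcription factor, then switches on genes that import and make amino acids and, if stress lasts, genes such as Ddit3 that favour cell death. Because ATF4 is controlled largely at translation, its mRNA level need not follow its activity. Many of its targets carry a composite C/EBP-ATF response element near their start.

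Promoters are shown as a description only, and their part in the levels below was not tested. RefSeq promoters of build GRCm38.p6, which run from 250 bases before to 50 bases after the annotated start, were found for 9 of the 10 genes, all but Slc7a5. The core letters of the C/EBP-ATF response element, TGATGNAA on either strand, matched in 5 of these 9 promoters and in 3.97% of all 32851 promoters of the same length. The palindrome TGACGTCA of the cAMP response element matched in 0 of the 9 and in 1.79% of all. A match is a run of letters and not evidence of binding. Within the 250 bases before the start, 4 of the 9 had a match to the first motif, against 3.45% of all promoters. Their bases are given 5′ to 3′ in the direction of the gene up to the base before the start, with the matches in capitals. Slc3a2 is added as a gene with no match. In AICAR fibroblasts against control, genes with no match were at 0.59 (Slc3a2), -0.35 (Atf4), -0.74 (Ddit3) and -1.87 (Sesn2). Of the genes with a match before the start, Slc7a11 was at -0.94, Asns at -1.20 and Chac1 at -2.10. Atf3 was at 1.12, but its place among the genes compared depends on this same AICAR array, so nothing is read from it. Whether a match goes with the direction of a difference was not tested.
Atf3, chr1:191183334-191183583, minus strand: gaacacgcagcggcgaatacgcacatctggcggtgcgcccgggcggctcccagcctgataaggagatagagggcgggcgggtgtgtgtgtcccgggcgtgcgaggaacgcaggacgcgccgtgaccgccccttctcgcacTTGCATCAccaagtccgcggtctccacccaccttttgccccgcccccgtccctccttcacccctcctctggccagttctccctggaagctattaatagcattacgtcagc
Chac1, chr2:119350992-119351241, plus strand: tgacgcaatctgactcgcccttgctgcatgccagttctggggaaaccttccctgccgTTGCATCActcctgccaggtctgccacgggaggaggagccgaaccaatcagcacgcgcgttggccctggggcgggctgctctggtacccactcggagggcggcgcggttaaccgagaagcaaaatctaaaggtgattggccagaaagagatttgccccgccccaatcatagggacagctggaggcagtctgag
Asns, chr6:7693210-7693459, minus strand: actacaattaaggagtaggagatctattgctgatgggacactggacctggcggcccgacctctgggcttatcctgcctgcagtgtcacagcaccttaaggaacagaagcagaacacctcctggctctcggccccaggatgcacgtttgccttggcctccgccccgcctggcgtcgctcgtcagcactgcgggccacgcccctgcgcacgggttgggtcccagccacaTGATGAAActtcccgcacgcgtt
Slc7a11, chr3:50443614-50443863, minus strand: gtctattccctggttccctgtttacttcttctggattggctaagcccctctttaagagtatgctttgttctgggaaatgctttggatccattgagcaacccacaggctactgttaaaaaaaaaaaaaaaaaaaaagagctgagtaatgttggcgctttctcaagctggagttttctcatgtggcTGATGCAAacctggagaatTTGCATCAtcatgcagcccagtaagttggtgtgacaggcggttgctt
Slc3a2, chr19:8713898-8714147, minus strand: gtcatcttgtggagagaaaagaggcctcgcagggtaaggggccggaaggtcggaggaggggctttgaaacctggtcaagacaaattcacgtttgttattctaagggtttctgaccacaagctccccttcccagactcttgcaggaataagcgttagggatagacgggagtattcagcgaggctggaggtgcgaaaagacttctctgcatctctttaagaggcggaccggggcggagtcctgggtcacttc
Counted from the start, with the base before it at -1, the match lay at -110 to -103 in Atf3, at -193 to -186 in Chac1 and at -23 to -16 in Asns. Slc7a11 had a pair of matches facing each other, at -66 to -59 and at -47 to -40. The letters TTGCATCA, or their reverse complement, were shared by Atf3, Chac1 and Slc7a11, while Asns had TGATGAAA. Trib3, annotated at chr2:152337425-152344060, had a match after its start, at bases 15 to 22. Atf4 (chr15:80255184-80257545), Ddit3 (chr10:127290793-127296291), Sesn2 (chr4:132492804-132510456) and Slc3a2 had none of these letters in the window. Slc7a5 lies at chr8:121881146-121907686.

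**Figure D1:**
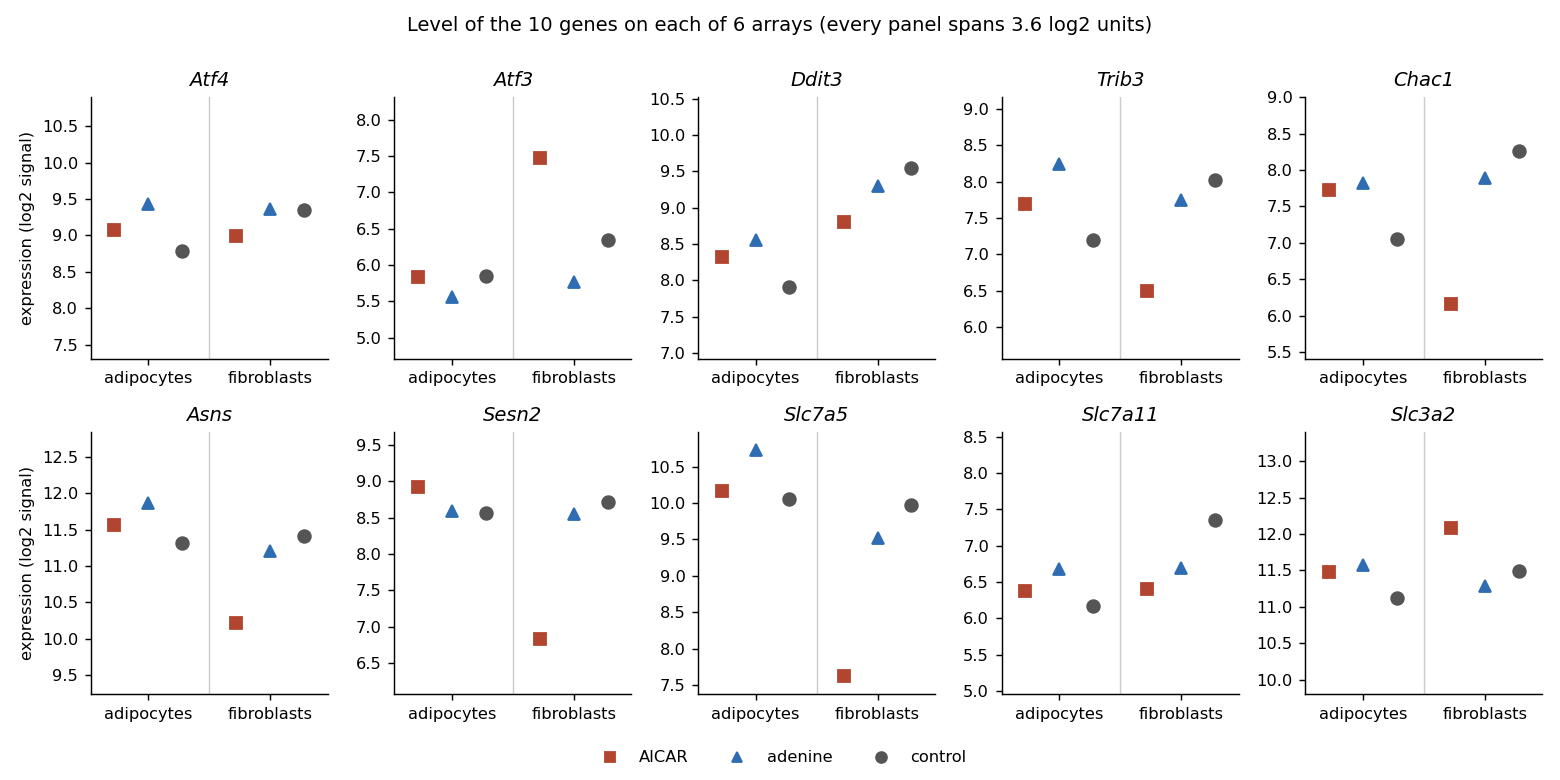
Log2 signal of each of the 10 genes on the 6 arrays, 1 point per array, with adipocytes left and fibroblasts right of the line in each panel and AICAR, adenine and control from left to right. Panels share a span but not an origin, so heights are comparable within a panel only. The AICAR fibroblast array is the lowest for 5 genes and the highest for Atf3 and Slc3a2.

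Levels of each gene are given on the log2 scale in the order AICAR, adenine and control, and genes are not compared with each other in level. The regulator Atf4 stood at 9.08, 9.44 and 8.78 in adipocytes and at 8.996, 9.37 and 9.35 in fibroblasts, so the untreated adipocytes were lowest. Ddit3 stood at 8.33, 8.56 and 7.90 in adipocytes and at 8.80, 9.30 and 9.55 in fibroblasts, and all 3 fibroblast arrays lay above all 3 adipocyte arrays. Atf3 stood at 5.83, 5.56 and 5.85 in adipocytes and at 7.47, 5.77 and 6.35 in fibroblasts. Only the AICAR and control fibroblasts were above the floor for Atf3.

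Of the effectors, Trib3 stood at 7.69, 8.24 and 7.20 in adipocytes and at 6.50, 7.74 and 8.03 in fibroblasts. Chac1 stood at 7.72, 7.82 and 7.06 in adipocytes and at 6.16, 7.89 and 8.26 in fibroblasts. In both genes the AICAR fibroblasts were lowest and the untreated adipocytes next. Asns stood at 11.57, 11.87 and 11.31 in adipocytes and at 10.21, 11.21 and 11.42 in fibroblasts. Sesn2 stood at 8.91, 8.59 and 8.56 in adipocytes and at 6.84, 8.55 and 8.71 in fibroblasts. For Asns and Sesn2 the AICAR fibroblasts stood well below 5 arrays that lay close together.

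Among the transporters, Slc7a5 stood at 10.17, 10.72 and 10.06 in adipocytes and at 7.63, 9.52 and 9.98 in fibroblasts, with every adipocyte array above every fibroblast array. Slc7a11 stood at 6.38, 6.68 and 6.17 in adipocytes and at 6.41, 6.70 and 7.35 in fibroblasts, where the untreated fibroblasts stood highest. Slc3a2 stood at 11.48, 11.57 and 11.13 in adipocytes and at 12.08, 11.29 and 11.49 in fibroblasts, where the AICAR fibroblasts stood highest and the states overlapped.

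Among the 4 comparisons with a control, AICAR in fibroblasts gave the widest spread of these genes. Compared with untreated fibroblasts, 5 of the 10 genes were at least 2-fold lower and Atf3 was at least 2-fold higher. Among all 9969 genes 3.69% were lower and 1.7% higher by 2-fold or more. The median of the 10 genes was -1.07, beside -0.03 for all genes compared. Of the 10 genes 8 were below 0, while 47.5% of all genes were above 0. Without Atf3, 5 of 9 were lower and 0 of 9 higher by 2-fold or more.

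Atf4 itself stood at 8.996 with AICAR and 9.35 in the fibroblast control. Its difference was -0.35, and 2328 of the 9969 genes had one as low or lower, so the mRNA of the central factor was well inside the bulk of all genes. The other transcription factors of the group went different ways. Atf3, a stress-induced leucine zipper factor, stood at 7.47 with AICAR and 6.35 in the control. It was higher by 1.12 (2.18-fold). Ddit3, which encodes the proapoptotic factor CHOP, stood at 8.80 and 9.55 in the same order, a difference of -0.74.

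Among the effectors of the response, Trib3 and Chac1 were far lower. Trib3, a pseudokinase that binds ATF4 and restrains it, stood at 6.50 with AICAR and 8.03 in the control, a difference of -1.53 (2.89-fold lower). Chac1, an enzyme that breaks down glutathione, stood at 6.16 and 8.26, a difference of -2.10 (4.27-fold lower), and 31 genes were as low or lower. With AICAR its level was close to the floor. Asns, which makes asparagine from aspartate and glutamine, stood at 10.21 against 11.42 in the control (-1.20, 2.30-fold lower). Sesn2, a leucine-binding sestrin that restrains the growth kinase complex mTORC1, stood at 6.84 against 8.71 (-1.87, 3.66-fold lower). All 4 had their lowest level of the 6 arrays in the AICAR fibroblasts.

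The transporter genes did not move as a unit. Slc7a5 encodes LAT1, the light chain of a carrier for leucine and other large neutral amino acids, and Slc7a11 encodes xCT, the light chain of the cystine and glutamate exchanger. Both light chains reach the membrane bound to the heavy chain CD98, the product of Slc3a2. Slc7a5 stood at 7.63 with AICAR and 9.98 in the control, a difference of -2.35 (5.10-fold lower), and 22 of 9969 genes were as low or lower. Slc7a11 stood at 6.41 against 7.35 (-0.94, 1.92-fold lower). Slc3a2 stood at 12.08 against 11.49 and was higher by 0.59 (1.51-fold), its highest level of the 6 arrays. The heavy chain mRNA was thus on the other side of 0 from both light chain mRNAs.

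In the same pair of arrays 7 of 10 fibroblast markers were lower, 5 of them at least 2-fold, with a summed level of 14.20 with AICAR and 14.70 in the control. Of 10 adipocyte markers 7 were higher, 1 of them at least 2-fold (Fabp4, at 8.62 with AICAR and 6.97 in the control), with a summed level of 12.28 with AICAR and 11.91 in the control. Of 7 leukocyte markers on the array, Cd68 stood at 7.44 with AICAR and 5.95 in the control, and Ptprc, the pan-leukocyte antigen, stood at 4.21 and 4.24, below the floor. The part of these markers in the result was not tested.

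Adenine in fibroblasts gave small differences that leaned the same way. In each state both compounds were set against 1 control array, so their differences share that array. None of the 10 genes was at least 2-fold higher or lower than in untreated fibroblasts, where 0.0802% of all genes were higher and 0.0502% lower by that much. Of the 10 genes 9 were below 0, with a median of -0.26 beside -0.01 for all genes, of which 47.8% were above 0. Slc7a11 was the lowest, at 6.70 with adenine and 7.35 in the control (-0.66), and 19 of the 9969 genes were as low or lower. Atf3 stood at 5.77, below the floor, against 6.35 (-0.58), and nothing is read from its place among all genes. Slc7a5 stood at 9.52 against 9.98 (-0.46), and 109 genes were as low or lower. The differences of Slc7a11 and Slc7a5 were small in size but far down in the narrow distribution of this comparison.

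The other 7 genes lay closer to the control with adenine. Chac1 was at -0.37, Trib3 at -0.28, Ddit3 at -0.25, Asns at -0.21, Slc3a2 at -0.20 and Sesn2 at -0.16. Atf4 stood at 9.37 with adenine and 9.35 in the control, a difference of 0.02 that became -0.00 when arrays were centred on their medians.

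Set directly against adenine at the same dose and time, AICAR fibroblasts had 4 of the 10 genes at least 2-fold lower and 1 at least 2-fold higher. Among all genes 3.89% were lower and 1.59% higher by that much. The largest differences, AICAR minus adenine, were -1.89 for Slc7a5, -1.73 for Chac1, -1.71 for Sesn2, -1.25 for Trib3 and 1.71 for Atf3. The only gene at least 2-fold higher was Atf3, whose adenine level, 5.77, lay below the floor, and nothing is read from that call. Asns, at -0.99, lay just short of 2-fold. Slc7a11 differed by -0.29 only, and its level lay below the control with either compound.

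**Figure D2:**
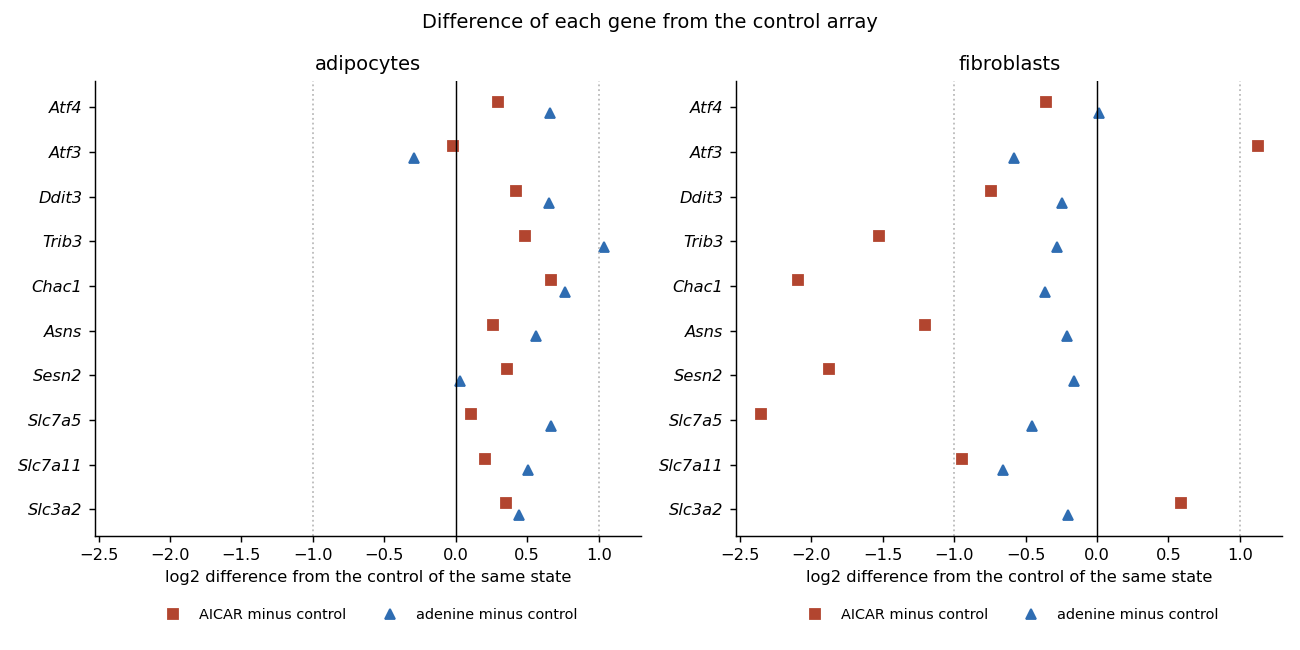
Log2 difference of each gene from the control array of the same state, adipocytes left and fibroblasts right, with squares for AICAR and triangles for adenine and dotted lines at a 2-fold difference. In adipocytes 9 of 10 genes lie above 0 with either compound, and in fibroblasts 8 of 10 with AICAR and 9 of 10 with adenine lie below it.

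Adipocytes that had been given AICAR during induction showed the 10 genes slightly above untreated adipocytes. None reached a 2-fold difference, where 0.612% of all genes were higher and 0.381% lower by that much. Of the 10 genes 9 were above 0, with a median of 0.33 beside -0.01 for all genes, of which 47.4% were above 0. Chac1 stood at 7.72 with AICAR and 7.06 in the adipocyte control (0.67), and 143 of 9969 genes were as high or higher. Trib3 stood at 7.69 against 7.20 (0.49), and 282 genes were as high or higher. Ddit3 stood at 8.33 against 7.90 (0.42). Chac1 and Trib3, low with AICAR in fibroblasts, were thus among the higher genes in adipocytes that had met it 3 days earlier.

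Smaller differences were seen for the remaining genes of AICAR adipocytes. Sesn2 was at 0.36 and reached 8.91, its highest level of the 6 arrays. Slc3a2 was at 0.35, Atf4 at 0.30, Asns at 0.26, Slc7a11 at 0.21 and Slc7a5 at 0.11. Atf3 was at -0.02, which became 0.04 after quantile normalization and 0.05 after median centring, and was below the floor on both arrays. In this pair 6 of 10 adipocyte markers were lower with AICAR, 1 of them at least 2-fold (Retn, -1.13). Of 10 fibroblast markers 8 were lower, none of them 2-fold, and Acta2 was at least 2-fold higher (1.95). The part of these markers in the result was not tested.

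Adenine during induction went with larger differences in adipocytes. Trib3 stood at 8.24 with adenine and 7.20 in the adipocyte control, higher by 1.04 (2.05-fold), and no other gene of the 10 reached 2-fold. After quantile normalization its difference was 0.98, short of that threshold. Among all genes 1.24% were higher and 2.4% lower by 2-fold or more. Of the 10 genes 9 were above 0, with a median of 0.60 beside 0.02 for all genes, of which 52.5% were above 0.

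Chac1 stood at 7.82 with adenine and 7.06 in the adipocyte control (0.77), Slc7a5 at 10.72 and 10.06 (0.66), and Atf4 at 9.44 and 8.78 (0.66). The Atf4 mRNA was at its highest of the 6 arrays in adenine adipocytes and at its lowest in untreated adipocytes. Ddit3 was at 0.65, Asns at 0.56, Slc7a11 at 0.50 and Slc3a2 at 0.44. Sesn2 was at 0.03, which became -0.05 after quantile normalization, and Atf3 was at -0.29 and below the floor on both arrays.

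On this pair of arrays all 10 adipocyte markers were higher with adenine, 6 of them at least 2-fold, with a summed level of 15.05 with adenine and 14.11 in the control. All 10 fibroblast markers were at least 2-fold lower, with a summed level of 12.51 with adenine and 14.13 in the control. The part of these markers in the result was not tested.

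Between the compounds in adipocytes no gene of the 10 differed 2-fold, where 2.21% of all genes were higher and 1.21% lower by that much with AICAR. AICAR minus adenine was negative for 8 of the 10 genes, with a median of -0.26 beside -0.03 for all genes. The lowest were Slc7a5 at -0.55 and Trib3 at -0.55, and Sesn2 was the highest at 0.33. On this pair of arrays all 10 adipocyte markers were lower with AICAR, 6 of them at least 2-fold (median -1.20), and all 10 fibroblast markers were higher, 9 of them at least 2-fold (median 1.40). The part of these markers in the result was not tested.

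**Figure D3:**
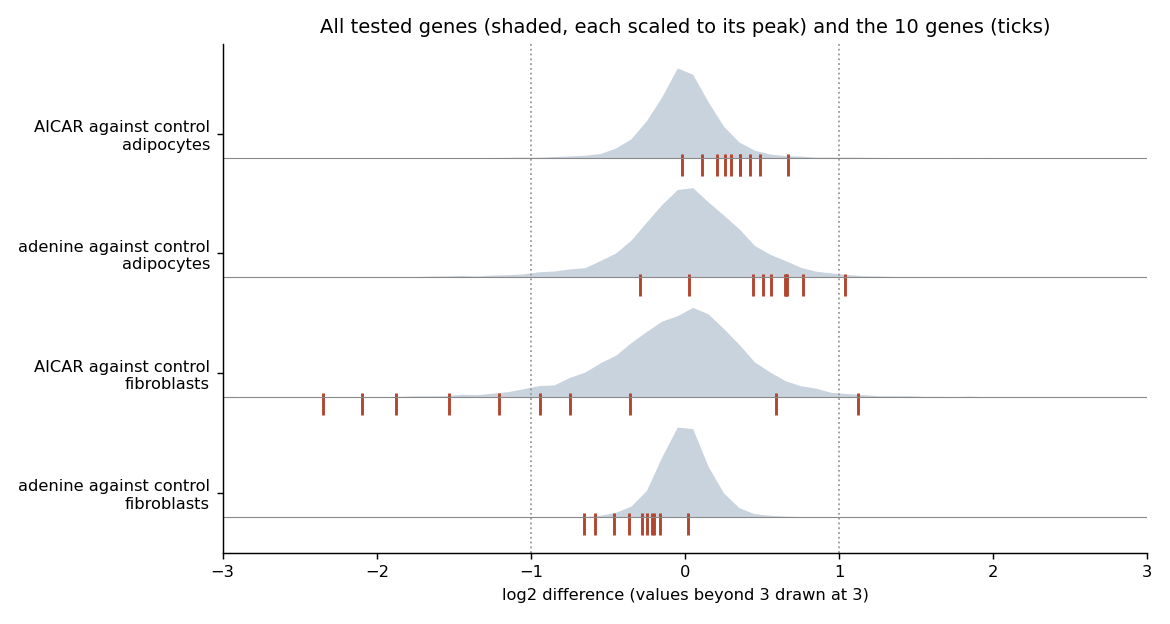
Distribution of the log2 difference over all 9969 genes compared (shaded, each scaled to its own peak) with the 10 genes as ticks beneath, for the 4 comparisons with a control. In fibroblasts given AICAR the ticks run from -2.35 to 1.12, and in adipocytes given AICAR from -0.02 to 0.67.

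The order of levels over the 6 arrays differed from gene to gene, and so did the range of levels. Slc7a5 had the widest range, 3.10, with 10.72 in adenine adipocytes at the top and 7.63 in AICAR fibroblasts at the bottom. The ranges of Chac1 (2.10), Sesn2 (2.08), Atf3 (1.91), Trib3 (1.74), Asns (1.66), Ddit3 (1.64), Slc7a11 (1.18) and Slc3a2 (0.95) followed, and Atf4 had the narrowest at 0.66. With 1 array a condition there is no spread by which to say which neighbours in an order differ.

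The 5 genes whose levels followed Slc7a5 most closely were Slx4ip, Fgfr1op2, Psat1, Slc25a39 and Tmem147, with Pearson correlations of 0.994 to 0.997 over the 6 arrays. For Atf4 they were Uxt (0.998), Fut11, Chac2, Ctf1 and Rab1a (0.973). They were ranked among 9452 genes, and with 6 points that share their arrays and normalization such values are a description only. Of the 5, Psat1, a serine synthesis enzyme, had a range of 3.39, wider than that of Slc7a5.

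Untreated adipocytes had lower levels of most of the 10 genes than untreated fibroblasts. Of the 10 genes 3 were at least 2-fold lower and 0 higher, where 4.27% of all genes were lower and 2.88% higher by that much. Ddit3 stood at 7.90 in adipocytes and 9.55 in fibroblasts (-1.64, 3.12-fold lower), Chac1 at 7.06 and 8.26 (-1.20), and Slc7a11 at 6.17 and 7.35 (-1.18). Trib3 was at -0.82, Atf4 at -0.57, Atf3 at -0.50, Slc3a2 at -0.37, Sesn2 at -0.15 and Asns at -0.11, and Slc7a5 at 0.08. The median was -0.54 beside 0.02 for all genes, and the value of Asns became 0.01 after quantile normalization.

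When both states had been given AICAR, the sign turned for several genes. Slc7a5 was higher in adipocytes by 2.54 (5.83-fold), Sesn2 by 2.08, Chac1 by 1.56, Asns by 1.36 and Trib3 by 1.19, which made 5 genes at least 2-fold higher. Atf3 was lower by that much, at -1.64, with an AICAR adipocyte level of 5.83, below the floor. Among all genes 5.93% were higher and 4.6% lower. These values share their arrays with the comparisons above and add no separate evidence.

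With adenine in both states only Slc7a5 of the 10 genes was at least 2-fold higher in adipocytes, at 10.72 and 9.52 in fibroblasts (1.20), and none was that much lower. Among all genes 6.75% were higher and 8.47% lower. Ddit3 remained below fibroblasts at -0.74, Asns was at 0.66 and Trib3 at 0.49, and Slc7a11 at -0.02, Sesn2 at 0.03, Chac1 at -0.07 and Atf4 at 0.07 were near 0.

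**Figure D4:**
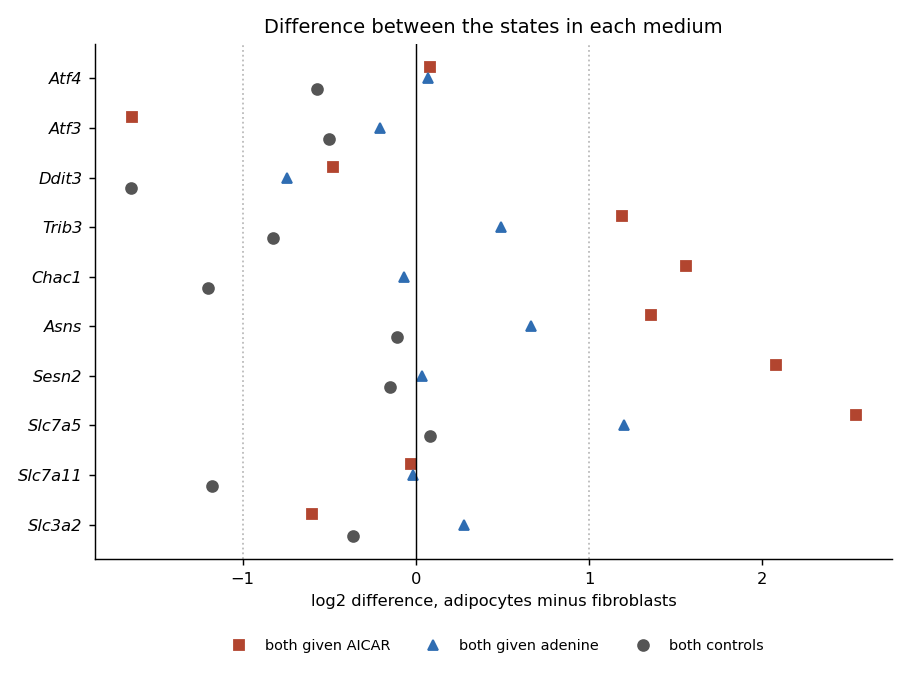
Log2 difference between adipocytes and fibroblasts for each gene in the same medium, with squares for AICAR, triangles for adenine and circles for control, and dotted lines at a 2-fold difference. With AICAR 5 genes lie above 1, and in control medium 3 lie below -1.

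The only test that the 6 arrays allow is an additive model of state and medium, and its error is the departure from additivity and not the spread between cultures. For state, 0 of the 10 genes and 10.6% of all genes had a limma adjusted p under 0.05 (Benjamini-Hochberg), and 3 of 10 had an unadjusted p under 0.05 there in limma, against 2941 of all 9969. Ddit3 came closest, at -0.95 for adipocytes minus fibroblasts (SE 0.25, limma adjusted p = 0.0693), followed by Slc7a5 at 1.28 (SE 0.44, limma adjusted p = 0.128). Without the AICAR arrays Slc7a5 was at 0.64, and without the control arrays Slc7a5 was at 1.87 and Ddit3 at -0.61. The count of 3 at an unadjusted p was 1 without the AICAR arrays and 4 without the control arrays. For AICAR minus control 0% of all genes passed, with 226 genes and none of the 10 at an unadjusted p under 0.05 in limma. For adenine minus control 0% passed as well, with 62 genes and none of the 10 at an unadjusted p under 0.05 in limma. The AICAR term of Slc7a5 was -1.12 with an SE of 0.54, since its 2 differences, 0.11 in adipocytes and -2.35 in fibroblasts, lay far apart. A response that differs between the states enters this model as error.

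Other genes of the pathway were taken from 7 further lists. The lists were chosen with earlier results of these data known, so they add no separate evidence. Among all genes 3.69% were at least 2-fold lower and 1.7% higher in AICAR fibroblasts than in control fibroblasts. The shares for the other comparisons with a control are those given above. In AICAR fibroblasts 7 of 10 enzymes of amino acid synthesis and one-carbon metabolism were at least 2-fold lower than in control fibroblasts, with a median of -1.37. The lowest were the mitochondrial folate enzyme Aldh1l2 at 6.51 with AICAR and 9.50 in the control (-2.995), Psat1 at 7.29 and 9.74 (-2.45), and the mitochondrial folate enzyme Mthfd2 at 7.08 and 9.16 (-2.07). In AICAR adipocytes Aldh1l2 stood at 8.57 against 7.40 in the adipocyte control (1.17), the only enzyme of this list past 2-fold there, and the median was 0.29. With adenine the median was 0.33 in adipocytes and -0.28 in fibroblasts, and no enzyme reached 2-fold.

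Of 19 other stress and ATF4-responsive genes that passed the floor, 4 were at least 2-fold lower and 0 higher in AICAR fibroblasts, with a median of -0.38. The lowest were Cth, which makes cysteine from cystathionine, at 5.78 with AICAR and 8.22 in the control (-2.44), the mitochondrial phosphoenolpyruvate carboxykinase Pck2 at 7.33 and 9.41 (-2.08), and the alanine aminotransferase Gpt2 at 7.12 and 8.52 (-1.40). The AICAR level of Cth lay below the floor. In the other 3 comparisons with a control none of the 19 reached 2-fold, and their medians were 0.00 with AICAR in adipocytes, 0.25 with adenine in adipocytes and -0.16 with adenine in fibroblasts.

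All 17 cytosolic aminoacyl-tRNA synthetases that were matched, the enzymes that load amino acids onto transfer RNA, stayed within 2-fold in these comparisons. In AICAR fibroblasts 15 of 17 were below 0 with a median of -0.46, and in adenine fibroblasts 16 of 17 with a median of -0.15. In adipocytes 15 of 17 were above 0 with AICAR (median 0.13) and 17 of 17 with adenine (median 0.28). Among all genes 47.5% were above 0 with AICAR and 47.8% with adenine in fibroblasts, and 47.4% and 52.5% in adipocytes. The lean of this list thus had the same sign as that of the 10 genes in each comparison, at a smaller size.

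The other amino acid transporters showed no common lean. Of 17 that passed the floor, 12 were below 0 in AICAR fibroblasts (median -0.20), and 2 of them were at least 2-fold lower. These were the glycine transporter Slc6a9, at 6.68 with AICAR and 8.95 in the control (-2.28), and the neutral amino acid transporter Slc38a4, at 6.83 and 8.02 (-1.19). In adenine adipocytes the glutamate transporter Slc1a3 stood at 9.21 against 7.18 in the adipocyte control (2.03), and Slc38a4 at 4.94, below the floor, against 6.43 (-1.48). The medians were -0.17 with adenine and 0.05 with AICAR in adipocytes, and -0.05 with adenine in fibroblasts.

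Upstream of Atf4, 9 genes of the eIF2alpha kinases, phosphatases and sensors had a median of 0.07 in AICAR fibroblasts. Eif2ak4, which encodes GCN2, the kinase that senses uncharged transfer RNA, stood at 8.60 with AICAR and 7.25 in the control (1.35), and Eif2ak2, the kinase activated by double-stranded RNA, at 8.37 and 9.61 (-1.24). None of the 9 reached 2-fold in the other 3 comparisons with a control, where the medians were -0.05 with AICAR in adipocytes, 0.06 with adenine in adipocytes and 0.13 with adenine in fibroblasts.

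Of 13 other genes of the sestrin and amino acid sensing list, Sesn3 alone was past 2-fold, at 8.16 in AICAR fibroblasts and 9.92 in control fibroblasts (-1.76), beside a list median of -0.18. In that list the medians were 0.03 with AICAR in adipocytes, 0.10 with adenine in adipocytes and 0.01 with adenine in fibroblasts. Of 7 glutathione genes, Gclc, the catalytic subunit of the enzyme that limits glutathione synthesis, stood at 8.12 in AICAR fibroblasts and 7.05 in control fibroblasts (1.07), and Gpx1, a glutathione peroxidase, at 9.03 and 10.75 (-1.72). The glutathione medians were 0.19 with AICAR and 0.28 with adenine in adipocytes, where all 7 were above 0, and -0.31 with AICAR and -0.10 with adenine in fibroblasts.

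**Figure D5:**
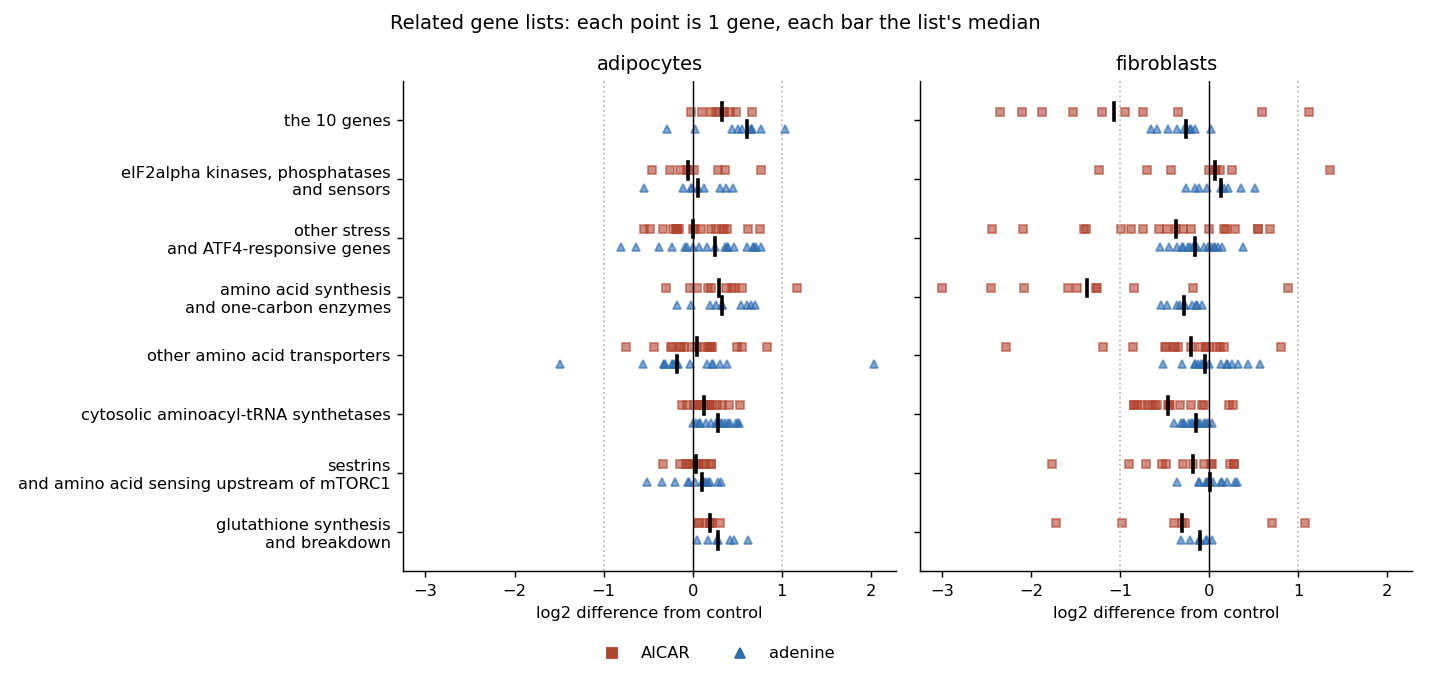
Log2 difference from control of every gene that passed the floor in the 10 genes and in 7 further lists, adipocytes left and fibroblasts right, with squares for AICAR, triangles for adenine and black bars for list medians. In AICAR fibroblasts the lowest medians are those of amino acid synthesis and one-carbon enzymes (-1.37) and of the 10 genes (-1.07).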

How the data were processed

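The deposited table holds log2 expression values of 35556 probe sets on 6 arrays, which the authors made with Transcriptome Analysis Console 1.0.0.234 per the submitters' processing notes, which also name build mm10. The sources used here do not say how background, normalization and probe summary were handled, and the values were used as deposited. The platform annotation gave 1 symbol to 21789 probe sets, which were used, several to 1621 and none to 12146. One probe set was kept per symbol by the highest mean over the 6 arrays, and the brighter genes, those whose mean reached the median gene mean, were compared.

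In 9 comparisons the values of 2 single arrays were subtracted, with no test, and genes that differed by 2-fold or more were counted. An additive model was fitted with limma 3.58.1 in R 4.3.3 (lmFit and eBayes, state and medium as terms, 2 residual degrees of freedom). Its p-values were adjusted by Benjamini-Hochberg over all 9969 genes at 0.05. The model was also run on simulated data with additive differences only. That run says nothing about responses that differ between the states. The members and lists were chosen with earlier results of these data known. Named genes are the 10 members, up to 3 highest and 3 lowest genes past 2-fold of each list in a comparison with a control, and the 5 genes most like Atf4 and the member of widest range. Of 20 synthetases 17 were matched, 14 of them under an older symbol. Marker levels were summed on the linear scale and given as log2. Alternatives were quantile normalization, median centring, 2 other filters, the mean of all probe sets, a 1.5-fold threshold and, for the model, a trended prior and each medium left out. Promoters came from RefSeq.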

Additional observations from a re-analysis of the deposited data

Results flagged for a closer look

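These results were taken up because a compound's difference from its control had opposite signs in adipocytes and fibroblasts, and with 1 array a condition the difference between the states was not tested. For AICAR, 9 of the 10 genes had opposite signs, beside 53.6% of all 9969 genes compared. The difference in adipocytes minus that in fibroblasts was 2.76 for Chac1, 2.46 for Slc7a5, 2.23 for Sesn2, 2.01 for Trib3, 1.46 for Asns, 1.17 for Ddit3, 1.15 for Slc7a11, 0.65 for Atf4 and -1.14 for Atf3. The median over the 10 genes was 1.31, beside 0.02 for all genes compared. The sign in adipocytes rests on small values for Slc7a5 (0.11) and Atf3 (-0.02). The Atf3 value became 0.04 after quantile normalization and 0.05 after median centring, which no longer opposes its 1.12 in fibroblasts.

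For adenine, 8 of the 10 genes had opposite signs, beside 53.9% of all genes. One of the 8, Sesn2, has an adipocyte value of 0.03 that became -0.05 after quantile normalization, which no longer opposes its -0.16 in fibroblasts. The corresponding values were 1.32 for Trib3, 1.16 for Slc7a11, 1.13 for Chac1, 1.12 for Slc7a5, 0.90 for Ddit3, 0.77 for Asns, 0.64 for Slc3a2 and 0.19 for Sesn2, with a median of 0.83 over the 10 genes beside 0.03 for all genes compared. Adipocytes had been without the compounds for 3 days when RNA was taken and fibroblasts had not, so state and time since exposure cannot be told apart.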

How the results depend on the processing

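Replicate cultures could not be paired, because each condition has 1 array and the labels give no replicate numbers. The additive model pairs the states by medium instead. Of 198 alternative values of the member counts, medians and model counts, 176 were kept within their tolerance (1.5 times for a count, 0.1 on the log2 scale for a median) and 22 were not. Many of those kept could not change, so the tally overstates stability. They include the 27 under the mean of all probe sets and the member counts and medians without a filter, which all 10 genes pass. The medians at a 1.5-fold threshold were fixed as well. Quantile normalization moved the median in AICAR fibroblasts to -0.97 and left 0 genes at least 2-fold higher in adenine adipocytes, where Trib3 stood at 0.98. It moved no single difference of the 10 genes by more than 0.156. A filter at the 75th percentile of gene means (7.69) left out Atf3, Trib3, Chac1 and Slc7a11. It gave 0 higher and 3 lower genes in AICAR fibroblasts, 0 higher in adenine adipocytes and 0 higher and 2 lower for AICAR against adenine in fibroblasts. For adipocytes against fibroblasts that filter gave 1 lower and a median of -0.26 in control medium, a median of 0.17 with adenine, and 3 higher and 0 lower with AICAR, since fewer genes were counted. At 1.5-fold 2 genes were higher in AICAR fibroblasts, 1 lower in adenine fibroblasts, 1 higher in AICAR adipocytes, 5 higher in adenine adipocytes and 2 higher for AICAR against adenine in fibroblasts. At that threshold adipocytes against fibroblasts had 2 higher and 1 lower with adenine and 2 lower with AICAR. More of all genes pass a lower threshold too, and a stricter filter changes which genes are compared. The shares of all genes printed above are for 2-fold and the main filter. These member counts therefore show only their dependence on the setting. The count of genes passing the state term, 1055, became 0 when the control arrays were left out (limma, with 2095 at an unadjusted p under 0.05), 511 when the adenine arrays and 921 when the AICAR arrays were, and none of the 10 genes passed in any of these. Closeness to the floor, which is not a measure of background, limits Atf3 most, which lay below it on 4 of 6 arrays. The trended prior changed no count of the 10 genes. The mean of all probe sets could not change their values, since each has 1 probe set.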

Other observations

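Over the 6 arrays the 10 genes did not form a single pattern. Of the 45 pairs of genes 11 had a Pearson correlation above 0.8 and 7 had one below -0.7, given as a description over 6 arrays that share their normalization. Asns and Slc7a5 were the closest pair (0.99), followed by Trib3 and Chac1 (0.94) and by Sesn2 and Slc7a5 (0.93). Ddit3 was closest to Slc7a11 (0.86) and unlike Slc7a5 (-0.21). Atf3 ran opposite to Slc7a5 (-0.92), Asns (-0.91) and Sesn2 (-0.89), and with Slc3a2 (0.81). It lay below the floor on most arrays and was highest in AICAR fibroblasts. On that same array Slc7a5, Asns and Sesn2 were lowest and Slc3a2 was highest. Most of the 7 pairs below -0.7 include Atf3, and nothing is read from its correlations. Atf4 mRNA was closest to Trib3 (0.75) and Slc7a11 (0.75), and its correlation with Asns was 0.43.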
